A study of Caenorhabditis elegans with 6 samples.

Results

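The cytosolic ribosomal protein genes of Caenorhabditis elegans were followed by RNA-seq in anchor cells, set against cells of the whole body. They were taken by name, as every gene whose symbol starts with rpl-, rps- or rla-, together with ubl-1 and rack-1. The rule found 81 genes of the 46748 in the count tables, 48 of the large subunit and 33 of the small subunit. The anchor cell is the uterine cell that breaches the basement membrane above the vulval precursors. It was sampled in 3 libraries (anchor cell replicates 1 to 3) from wild-type (WT) larvae in the middle of the third larval stage, at the point where P6.p, a vulval precursor, is present as 2 cells. Cells of the whole body of wild-type larvae of the same stage made up the other 3 libraries (whole-body replicates 1 to 3). All larvae were grown at 20 °C on plates with NA22 bacteria, all cells were freed with SDS, DTT, pronase E and mechanical disruption and passed through a 5 μm filter. Extraction gave 8 to 10 ng of RNA, which was turned into libraries by an amplification kit, Ovation RNA-Seq System V2. The sources used here do not give how anchor cells were isolated or whether replicates came from separate cultures, so p-values measure only the spread between these libraries, which may be technical. Both groups are limited to cells that passed the filter.

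A ribosome has a small subunit, which reads the mRNA, and a large subunit, which joins amino acids and lets the new chain out through an exit tunnel. Each is built of ribosomal RNA and many small proteins that are mostly present in 1 copy, so cells usually make the mRNAs of these proteins in concert and at high levels. In worms as in other animals, dividing and growing cells, the germ line among them, are rich in ribosomes. The anchor cell has left the cell cycle, and the series concerns its invasion through basement membrane.

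The libraries held 23279623 to 37501816 counts on genes, and counts of ribosomal RNA and of mitochondrially encoded genes took a large and unequal part of them. Counts outside those genes came to 9470948 to 13113371 in anchor cell libraries and to 9553873 to 23706440 in whole-body libraries. Of the 10 genes listed as anchor cell markers, 7 passed the test as higher in anchor cells and none as lower, and their summed level was 1434 to 3244 CPM in anchor cell libraries and 402 to 647 CPM in whole-body libraries. CPM stands for TMM-scaled counts relative to library size, a scaling that sets libraries against each other by the bulk of their genes. Of 8 neuron markers, 1 (unc-119) passed the test as higher in anchor cells and 5 lay higher without overlap. Over all genes tested, 2.01% passed as higher and 12.4% lay higher without overlap. Both lists held 1 marker with a log2 fold change below 0, him-4 of the anchor cell (-0.72) and ida-1 of neurons (-0.26). Without unc-119 the summed level of the neuron markers was 707 to 1215 CPM in anchor cell libraries and 322 to 538 CPM in whole-body libraries. The gene unc-119 alone had 506 to 2604 CPM in anchor cells and 1.84 to 4.50 CPM in whole-body cells. The part of those cells in any result below was not tested. Fewer cells of a type and less RNA per cell cannot be told apart in such bulk samples.

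Ribosomal protein mRNA was abundant in every library, and anchor cell replicate 1 stood apart from the other 2 anchor cell libraries. Outside ribosomal RNA and mitochondrially encoded genes, the 81 genes took 2.31%, 6.87% and 6.35% of counts in anchor cell libraries 1, 2 and 3. In whole-body libraries 1, 2 and 3 they took 3.97%, 3.55% and 5.12%. Anchor cell replicate 1 lay below all whole-body libraries and anchor cell replicates 2 and 3 lay above all of them, so the groups overlapped. The mean share was 5.18% ± 2.497 in anchor cells and 4.21% ± 0.815 in whole-body cells (SD, n = 3 each). As a share of all gene counts, in which mitochondrially encoded genes weigh more heavily in anchor cells, the values were 1.94% ± 1.03 and 1.98% ± 0.337 (SD, n = 3 each). The first anchor cell library also had the most counts on mitochondrially encoded genes other than their ribosomal RNA, 27.8% of its total, against 7.76% and 8.36% in the other anchor cell libraries and 1.07% to 1.59% in whole-body libraries. It had 16990 genes with a count, against 11508 and 11073 in the other anchor cell libraries and 17185 to 22216 in whole-body libraries. Its summed anchor cell markers were the lowest of the group, 1434 CPM against 3244 and 2676 CPM in anchor cell replicates 2 and 3. Among them nhr-67, egl-43, hlh-2, lin-29, fos-1 and lag-2 were lowest in replicate 1, and cdh-3, lin-3, zmp-1 and him-4 were highest. Its summed neuron markers without unc-119 were the highest, 1215 CPM against 707 and 848 CPM. Among these rab-3, ric-4, unc-104, egl-3 and ida-1 were highest in replicate 1, and snb-1 and sbt-1 were lowest. The gene egl-3 alone had 524 CPM there. The part of these differences in the ribosomal protein values was not tested.

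**Figure D1:**
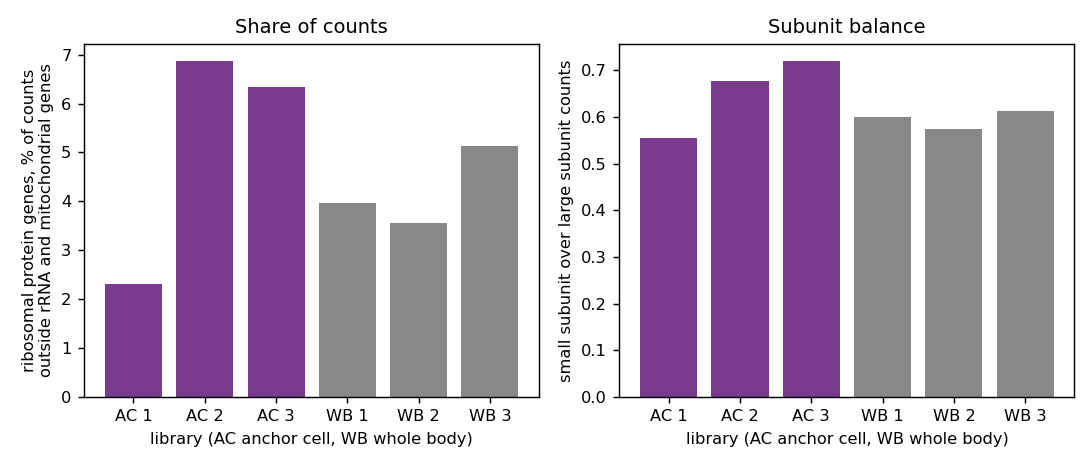
Left, counts on the 81 ribosomal protein genes in percent of counts outside rRNA and mitochondrially encoded genes; right, summed small subunit counts over summed large subunit counts, 1 bar per library (AC anchor cell, WB whole body). Anchor cell replicate 1 is the lowest bar in both panels (2.31% and 0.554) and anchor cell replicates 2 and 3 are the 2 highest.

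With TMM scaling almost every ribosomal protein gene had a higher fitted level in anchor cells, and none of them passed the test. Of the 80 genes with enough counts to be tested, 79 had a log2 fold change above 0 and 1, rpl-11.1, had one below 0. The median log2 fold change was 1.14, beside -0.12 over all 11955 genes tested, of which 46.8% were above 0 and 53.2% below. Under edgeR's quasi-likelihood test none of the 80 genes was called higher or lower at an adjusted p of 0.05, where 3.05% of all genes were called, 2.01% as higher and 1.05% as lower. Before adjustment, edgeR had 29 of them higher and 1 lower at a p threshold of 0.05, beside 11.2% and 13.2% of all genes. DESeq2 called 3 genes higher (rpl-27, rpl-37 and rpl-39) and limma voom with sample weights called 15, and neither called any of them lower. DESeq2 called 16% of all genes, 5.37% as higher and 10.6% as lower, and limma voom called 17%, 5.55% as higher and 11.4% as lower. Library totals alone moved the medians to 0.30 for these genes and to -0.94 for all genes. The gap between the medians was 1.24, against 1.26 with TMM. Library totals shifted all genes by nearly the same amount, so this gap could hardly change there. With each library's size set to its ribosomal protein counts, the medians were 0.44 for these genes and -0.35 for all genes. The gap was then smaller, 0.79. With library totals 57 of the 80 genes, in place of 79, had a log2 fold change above 0. On simulated counts the edgeR fit missed most changes at the smaller folds tried, all above the median with TMM. The changed genes there were drawn at random from all genes tested. Their recovery need not be that of the ribosomal protein genes, whose median SE was 0.60 beside 1.14 over all genes. A gene that did not pass is still not shown to be equal between groups.

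Anchor cell replicate 1 differed in level from replicates 2 and 3, and the number of calls changed when it was left out. Against the whole-body mean, the median gene stood at -0.086, 1.25 and 1.62 on the log2 scale in anchor cell replicates 1, 2 and 3. In replicate 1 only 38 of 80 genes lay above the whole-body mean, and in replicates 2 and 3 79 did, all but rpl-11.1. Without anchor cell replicate 1, edgeR called 41 of 80 genes higher and none lower, where 7.28% of all genes were called higher and 8.71% lower. These 41 were 21 large subunit and 20 small subunit genes. Leaving out any other single library gave no call among the 80. The share of all genes called higher was then 0.75% and 1.2% when anchor cell replicate 2 or 3 was left out, and 0.633%, 0.857% and 0.236% without whole-body replicates 1, 2 and 3. The share called lower was 0.368%, 0.953%, 0.222%, 0.21% and 0.0532% in the same order.

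**Figure D2:**
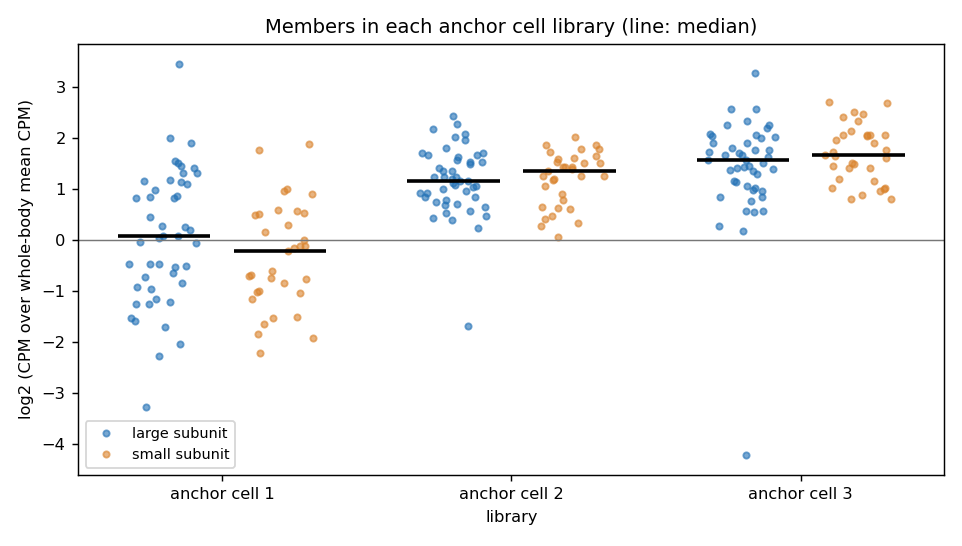
Log2 of each tested gene's CPM in an anchor cell library over its mean CPM in the 3 whole-body libraries, large subunit left and small subunit right within each library; black lines are medians. The points of anchor cell replicate 1 lie on both sides of 0, those of replicates 2 and 3 lie above 0 except rpl-11.1.

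Libraries also differed in which ribosomal protein genes they held most of. Across the 81 genes, which share a library and its depth, Spearman's rho of counts was 0.813 to 0.837 between anchor cell replicate 1 and the other 5 libraries, and 0.948 to 0.996 among those 5. The log2 ratio of anchor cell replicate 1 to replicates 2 and 3 had an SD over the tested genes of 1.29 and 1.31, against 0.70 between replicates 2 and 3 and 0.22 to 0.55 between whole-body libraries. In anchor cell replicate 1, 64 of 80 genes were below both other anchor cell libraries and 8 were above both. It lay below all whole-body libraries for 34 genes and above all of them for 27. The matching shares over all genes tested were not determined. Whether these counts are particular to ribosomal protein genes therefore cannot be told.

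In 20 of 80 genes all 3 anchor cell libraries lay above all 3 whole-body libraries, which is 25.0% of them beside 12.4% of all genes tested. In 1 gene, rpl-11.1, they lay below, beside 23.2% of all genes. Of the 20 genes, 14 belong to the large subunit and 6 to the small subunit.

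**Figure D3:**
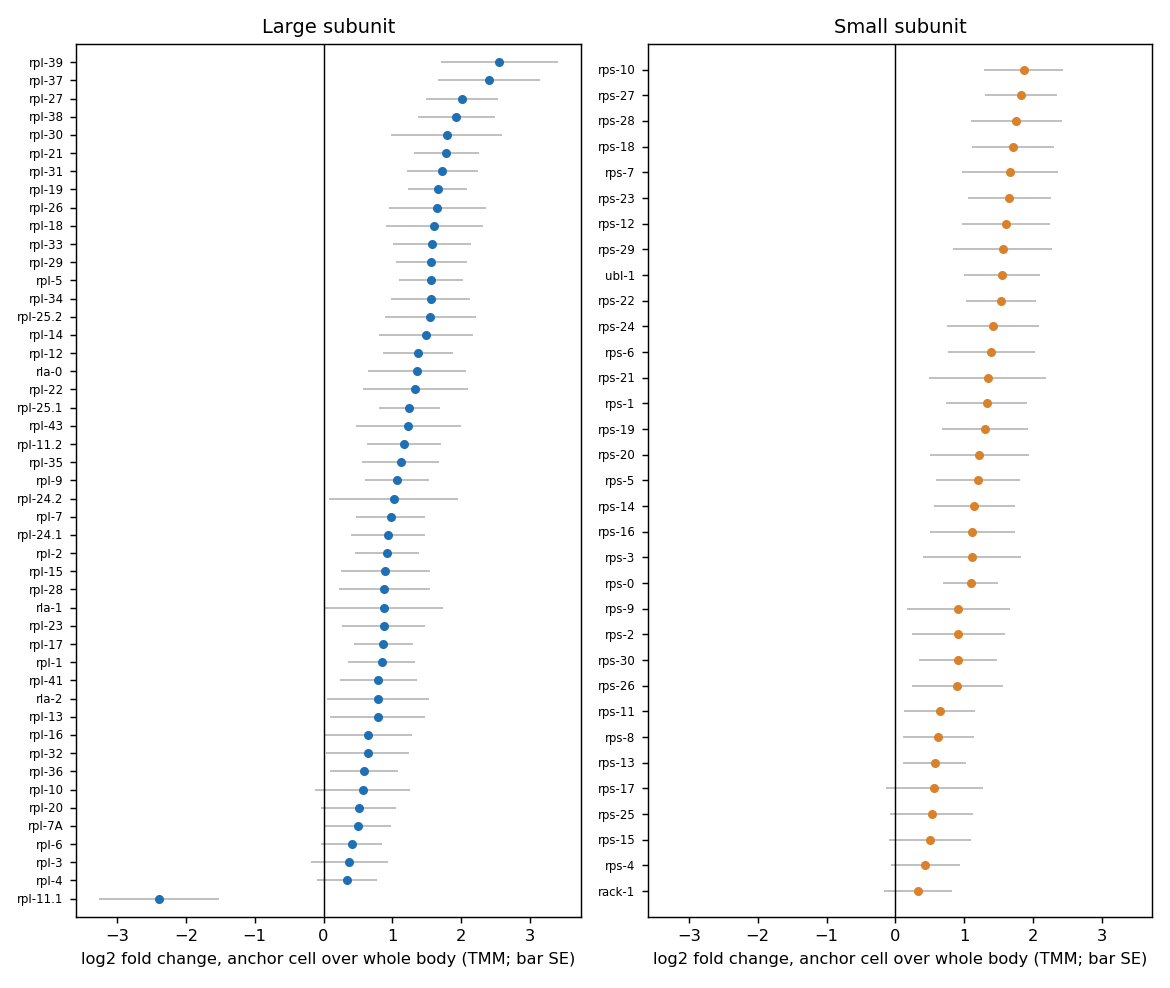
Log2 fold change of anchor cells over whole-body cells from edgeR with TMM scaling for the 80 tested genes, sorted within each subunit, with the SE as bars. All points but rpl-11.1 lie between 0.33 and 2.55.

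The medians of the 2 subunits lay close together. The median log2 fold change was 1.07 for large subunit genes (47 tested, from -2.39 to 2.55) and 1.20 for small subunit genes (33 tested, from 0.33 to 1.86). By library, against the whole-body mean, the large subunit median was 0.076, 1.17 and 1.57 in anchor cell replicates 1, 2 and 3, and the small subunit median was -0.22, 1.36 and 1.67. The small subunit was thus the lower of the 2 in replicate 1 and the higher in replicates 2 and 3. Summed small subunit counts over summed large subunit counts, a ratio within a library that needs no scaling, stood at 0.554, 0.677 and 0.721 in anchor cell libraries 1, 2 and 3, against 0.599, 0.574 and 0.613 in whole-body libraries 1, 2 and 3. The ratio averaged 0.651 ± 0.0863 in anchor cells and 0.596 ± 0.0197 in whole-body cells (SD, n = 3 each), with overlap through anchor cell replicate 1. These medians and ratios were not tested.

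Levels per kilobase of exon ranged widely, although the proteins are mostly needed in equal numbers. Over the 79 tested genes with an exon length, the group mean ran from 5.995 to 4770 CPM per kb in anchor cells with a median of 207 CPM per kb, and from 5.27 to 2412 CPM per kb in whole-body cells with a median of 84.2 CPM per kb. The 3 highest of the large subunit over all libraries were rpl-18, rpl-20 and rpl-3, and the 3 highest of the small subunit were rps-15, rps-18 and rps-1. The lowest were rpl-24.2 and rps-21.

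The gene rpl-18 encodes a protein of the large subunit surface and had the highest level per kb in anchor cells. It had 441, 3995 and 4923 CPM in anchor cell replicates 1, 2 and 3, against 1084, 1112 and 872 CPM in whole-body replicates 1, 2 and 3. Anchor cell replicates 2 and 3 were the highest libraries and replicate 1 the lowest, so the groups overlapped (log2 fold change 1.61 ± 0.70 SE; edgeR adjusted p = 0.192). It took 11.99% and 12.3% of all ribosomal protein counts in anchor cell replicates 2 and 3, the largest share of any gene there, and 5.05% in replicate 1, against 5.04% to 8.22% in whole-body libraries.

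The gene rpl-3, whose product reaches toward the site where peptide bonds form, led the ribosomal protein counts of all 3 whole-body libraries. Its level was 680, 3378 and 3517 CPM in anchor cell libraries, against 1784, 1963 and 2097 CPM in whole-body libraries, with the same pattern of overlap. Its log2 fold change, 0.37 ± 0.56 (SE; edgeR adjusted p = 0.743), was among the 5 smallest. Scaling by library totals put it at -0.56. As a share of ribosomal protein counts, rpl-3 took 7.79%, 10.1% and 8.77% in anchor cell libraries, below the 12.98%, 14.5% and 12.1% of the whole-body libraries.

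Other genes near the bottom of the order were also long or highly expressed ones. The gene rpl-4, whose protein lines the exit tunnel, had 724, 1772 and 2038 CPM in anchor cell libraries, against 1160, 1144 and 1273 CPM in whole-body libraries (log2 fold change 0.34 ± 0.44 SE; edgeR adjusted p = 0.695). The large subunit gene rpl-6 had 635, 1622 and 1347 CPM against 742, 780 and 1197 CPM (0.41 ± 0.44 SE; edgeR adjusted p = 0.635). For both, anchor cell replicate 1 was the lowest library and the other 2 anchor cell libraries were the highest. The gene rpl-20, named rpl-18A in RefSeq, had 615, 2387 and 3265 CPM against 1336, 1420 and 1643 CPM (0.51 ± 0.55 SE; edgeR adjusted p = 0.627), and its share of ribosomal protein counts was lower in every anchor cell library, 7.04% to 8.15% against 9.50% to 10.5%. With libraries scaled by their totals, rpl-4, rpl-6 and rpl-20 had log2 fold changes of -0.55, -0.47 and -0.42.

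At the other end stood 4 short large subunit genes and 1 of the small subunit. The gene rpl-39 (chromosome V, 7775742 to 7776079, WBcel235) encodes one of the smallest ribosomal proteins, which sits in the exit tunnel. It had 32.1, 9.05 and 9.97 CPM in anchor cell replicates 1, 2 and 3, against 2.30, 1.74 and 4.70 CPM in whole-body replicates. All anchor cell libraries lay above all whole-body libraries, and replicate 1 was the highest (log2 fold change 2.55 ± 0.85 SE; edgeR adjusted p = 0.0988).

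The gene rpl-37 (chromosome III, 3528642 to 3528917), for a zinc-binding protein of the large subunit, had 9.83, 35.0 and 69.7 CPM in anchor cell libraries, against 6.22, 6.13 and 9.26 CPM in whole-body libraries (2.41 ± 0.74 SE; edgeR adjusted p = 0.0806). The large subunit gene rpl-38 had 29.0, 43.1 and 78.1 CPM against 11.17, 10.4 and 17.8 CPM (1.93 ± 0.56 SE; edgeR adjusted p = 0.0724). The small subunit gene rps-10, whose product lies in the head of the subunit, had 55.7, 106 and 239 CPM against 30.7, 28.7 and 50.8 CPM (1.86 ± 0.57 SE; edgeR adjusted p = 0.0808). Groups did not overlap in any of the 3 genes.

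The gene rpl-27 (chromosome I, 1834883 to 1835438) was the most even of the named genes in anchor cells and had the lowest adjusted p of the 80. It had 65.9, 66.9 and 66.9 CPM in anchor cell replicates 1, 2 and 3, against 11.7, 11.104 and 26.8 CPM in whole-body replicates 1, 2 and 3. The anchor cell values stood close together above all whole-body values (log2 fold change 2.01 ± 0.52 SE; edgeR adjusted p = 0.0666). Its adjusted p was 0.0329 with DESeq2 and 0.0143 with limma voom with sample weights, and its edgeR adjusted p was 0.0446 without anchor cell replicate 1.

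The stalk of the large subunit, which recruits elongation factors, is encoded by rla-0, rla-1 and rla-2, named rplp-0, rplp-1 and rplp-2.2 in RefSeq. For rla-1 the library that stood apart was most distant: 6.81 CPM in anchor cell replicate 1 and 175 and 181 CPM in replicates 2 and 3, against 74.3, 53.6 and 69.8 CPM in whole-body replicates. No other tested gene was as low in anchor cell replicate 1 relative to replicate 2 or to replicate 3, at -4.69 and -4.73 on the log2 scale. The gene rla-0 followed the same order, with 50.7, 488 and 632 CPM in anchor cell libraries, against 161, 142 and 154 CPM in whole-body libraries. The gene rla-2 had 7.72, 13.9 and 11.7 CPM against 5.38, 4.30 and 9.61 CPM. All 3 overlapped between groups, rla-2 only through anchor cell replicate 1 and whole-body replicate 3. Their log2 fold changes were 1.36 ± 0.71 for rla-0, 0.88 ± 0.86 for rla-1 and 0.79 ± 0.74 for rla-2 (SE; edgeR adjusted p = 0.281, 0.587 and 0.570). With libraries scaled by their totals, rla-1 and rla-2 were at -0.050 and -0.032.

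Among small subunit genes, rps-18 and rps-1 took a larger share of ribosomal protein counts in every anchor cell library. The gene rps-18 encodes a head protein at the interface between the subunits. It had 298, 1260 and 1842 CPM in anchor cell libraries, against 311, 269 and 460 CPM in whole-body libraries (log2 fold change 1.71 ± 0.60 SE; edgeR adjusted p = 0.112). Its share of ribosomal protein counts was 3.41%, 3.78% and 4.60% in anchor cells, above the 2.27%, 1.99% and 2.66% of whole-body cells. The gene rps-1, named rps-3A in RefSeq, had 353, 1640 and 2011 CPM against 456, 453 and 692 CPM (1.32 ± 0.58 SE; edgeR adjusted p = 0.196), and its share was 4.05% to 5.02% against 3.32% to 4.001%.

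The gene rps-15, for a protein near the decoding site, had 263, 1550 and 1683 CPM in anchor cell libraries, against 841, 958 and 667 CPM in whole-body libraries (0.50 ± 0.60 SE; edgeR adjusted p = 0.668), and -0.46 with library totals. The gene rps-21, the lowest of its subunit per kb, had 7.45, 5.27 and 25.4 CPM against 4.80, 3.22 and 6.998 CPM (1.34 ± 0.85 SE; edgeR adjusted p = 0.380). The groups overlapped in both genes.

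Both small subunit genes outside the rps- names lay above 0. The gene ubl-1, named rps-27A in RefSeq, encodes a small subunit protein fused to a ubiquitin-like leader. It had 73.6, 290 and 334 CPM in anchor cell libraries, against 74.4, 64.5 and 100 CPM in whole-body libraries (1.54 ± 0.55 SE; edgeR adjusted p = 0.118), and was called without anchor cell replicate 1 (edgeR adjusted p = 0.0140). The gene rack-1 encodes a scaffold for signalling proteins on the small subunit head. It had 396, 1374 and 1544 CPM against 875, 801 and 968 CPM, with a log2 fold change of 0.33 ± 0.50 (SE; edgeR adjusted p = 0.750), the smallest above 0, and -0.58 with library totals. Both genes overlapped between groups through anchor cell replicate 1. As a share of ribosomal protein counts rack-1 was lower in anchor cells, 3.85% to 4.53% against 5.60% to 6.37%.

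Read as shares of ribosomal protein counts, which are free of scaling between libraries, 13 tested genes lay higher in all anchor cell libraries than in all whole-body libraries and 6 lay lower. Among all 11955 genes divided by the same sums, 5.48% lay higher and 23.3% lower. The 6 lower genes were rpl-3, rpl-20, rpl-11.1, rps-4, rps-8 and rack-1. The 13 higher ones were rpl-12, rpl-21, rpl-27, rpl-31, rpl-37 and rpl-38 of the large subunit and rps-1, rps-10, rps-12, rps-18, rps-27, rps-28 and ubl-1 of the small subunit. When each library's size was set to its ribosomal protein counts, edgeR called none of the 80 genes, where it called 0.0251% of all genes higher and 0% lower.

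The single gene below 0 was rpl-11.1 (chromosome V, 3585312 to 3586064), 1 of a pair with rpl-11.2 (chromosome X, 2241738 to 2242618). Their product joins the 5S ribosomal RNA in the large subunit. In worms, autosomal copies of such pairs are known to serve the germ line, in which much of the X chromosome is silent. The gene rpl-11.1 had 107, 125 and 23 counts in anchor cell libraries 1, 2 and 3, against 647, 573 and 1037 counts in whole-body replicates 1, 2 and 3. These are 4.26, 6.39 and 1.11 CPM in anchor cells and 15.7, 9.22 and 36.7 CPM in whole-body cells. Every anchor cell library lay below every whole-body library, yet the log2 fold change of -2.39 ± 0.87 (SE) did not pass (edgeR unadjusted p = 0.0209, adjusted p = 0.125). Without whole-body replicate 3, which was the highest, the change was -1.67 (edgeR adjusted p = 0.483).

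Its partner rpl-11.2 went with the other genes. It had 104.4, 233 and 324 CPM in anchor cell libraries, against 66.7, 67.3 and 160 CPM in whole-body libraries (1.17 ± 0.54 SE; edgeR adjusted p = 0.216). Within the pair, which needs no scaling, rpl-11.1 made up 3.92% (95% exact binomial interval 3.22 to 4.72), 2.67% (2.23 to 3.17) and 0.340% (0.216 to 0.510) of counts in anchor cell replicates 1, 2 and 3. It made up 19.03% (17.7 to 20.4), 12.1% (11.145 to 13.018) and 18.6% (17.6 to 19.7) in whole-body replicates 1, 2 and 3. These intervals cover counting error of reads only. The means were 2.31% ± 1.82 and 16.6% ± 3.91 (SD, n = 3 each), without overlap, and the exact two-sided permutation test gave p = 0.10, the smallest that 3 against 3 libraries allow (adjusted p = 0.30 over 3 pairs).

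**Figure D4:**
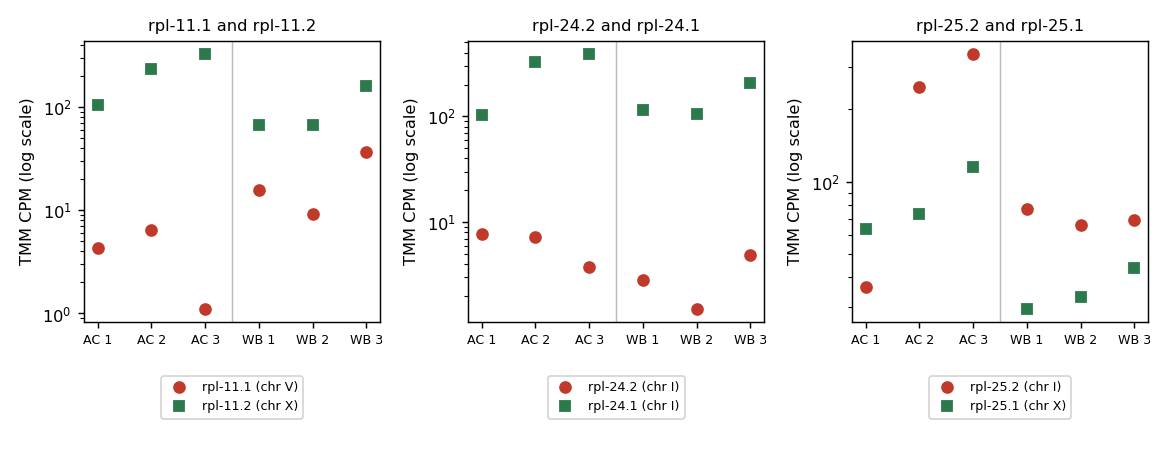
TMM CPM on a log axis of both genes of 3 pairs in each library (AC anchor cell left, WB whole body right of the line). The gene rpl-11.1 lies lower in every anchor cell library than in every whole-body library, whereas rpl-11.2, rpl-24.1, rpl-24.2 and rpl-25.2 overlap and rpl-25.1 lies higher.

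Germ line markers also lay lower in anchor cells. Of 10 listed, 9 lay lower in all anchor cell libraries than in all whole-body libraries, and the tenth, nos-2, was near 0 in every library. Over all genes tested, 23.2% lay lower without overlap and edgeR called 1.05% lower. Their summed level was 21.1 to 30.2 CPM in anchor cell libraries and 227 to 348 CPM in whole-body libraries, and 2 of the 9 tested, gld-1 and syp-1, passed edgeR's test as lower (adjusted p = 0.0345 and 0.0299). None was at 0 in all anchor cell libraries, while mex-5, him-3 and nos-2 were at 0 in anchor cell replicate 2 and nos-2 also in replicate 3. The germ line was not alone in this. Of 7 body wall muscle markers, 4 lay lower without overlap and none higher. One of them, unc-15, passed edgeR's test as lower (adjusted p = 0.0486). The part of germ line or muscle cells in the rpl-11.1 result was not tested.

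The pair rpl-25.2 (chromosome I, 8329062 to 8329647) and rpl-25.1 (chromosome X, 4715178 to 4715796) also has an autosomal and an X-linked copy, and did not behave in this way. The protein sits beside the exit of the tunnel and is named rpl-23A in RefSeq. The autosomal rpl-25.2 had 36.5, 247 and 340 CPM in anchor cell libraries, against 77.3, 66.4 and 69.1 CPM in whole-body libraries (1.55 ± 0.66 SE; edgeR adjusted p = 0.184). The X-linked rpl-25.1 had 63.5, 73.2 and 116 CPM against 29.6, 33.2 and 43.7 CPM, with no overlap (1.25 ± 0.45 SE; edgeR adjusted p = 0.117). The autosomal copy made up 36.5%, 77.1% and 74.6% of the pair in anchor cell libraries, against 72.3%, 66.7% and 61.2% in whole-body libraries (exact permutation p = 1, adjusted p = 1). The first anchor cell library was thus the only one in which the X-linked copy had more counts.

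The third pair by name, rpl-24.1 and rpl-24.2, is not a pair of equal roles. RefSeq names rpl-24.2 rsl-24D1, after a factor that in other species acts in assembly of the large subunit. It had the lowest level per kb of all tested genes over the 6 libraries, with 7.64, 7.26 and 3.76 CPM in anchor cell libraries, against 2.83, 1.51 and 4.88 CPM in whole-body libraries (1.02 ± 0.94 SE; edgeR adjusted p = 0.563). The gene rpl-24.1 averaged 273 ± 149 CPM in anchor cell libraries, against 143 ± 57.0 CPM in whole-body libraries (SD, n = 3 each; log2 fold change 0.94 ± 0.53 SE; edgeR adjusted p = 0.323). The share of rpl-24.2 in the pair was 3.33% ± 3.11 against 2.04% ± 0.542 (SD, n = 3 each; exact permutation p = 0.90, adjusted p = 1).

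The gene rpl-42 was not tested, with 1 count in anchor cell replicate 1, 1 in whole-body replicate 1 and 0 in the other 4 libraries, where 3 counts correspond to 0.0800 to 0.129 CPM of a library's total, without TMM scaling. The gene rpl-41 was tested but its symbol is not in the annotation used here, so it has no length or position. It had 52.2, 38.3 and 36.4 CPM in anchor cell libraries, against 17.8, 13.2 and 42.0 CPM in whole-body libraries (0.80 ± 0.56 SE; edgeR adjusted p = 0.437).

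Exon length varied with both level and change. Joined exons of the 79 tested and annotated genes ran from 236 to 1456 bases, with a median of 542 bases. Longer genes had higher levels per kb (Spearman's rho 0.563 over 79 genes, mean of 6 libraries) and smaller log2 fold changes (rho -0.350 over 79 genes). The genes share the same libraries and are not independent points. The shortest 26 genes (236 to 480 bases) had a median log2 fold change of 1.38, the middle 26 (482 to 664 bases) 1.23 and the longest 27 (665 to 1456 bases) 0.92. Against the whole-body mean, those 3 medians were 0.51, -0.038 and -0.72 in anchor cell replicate 1, 1.38, 1.22 and 1.25 in replicate 2, and 1.72, 1.59 and 1.42 in replicate 3.

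**Figure D5:**
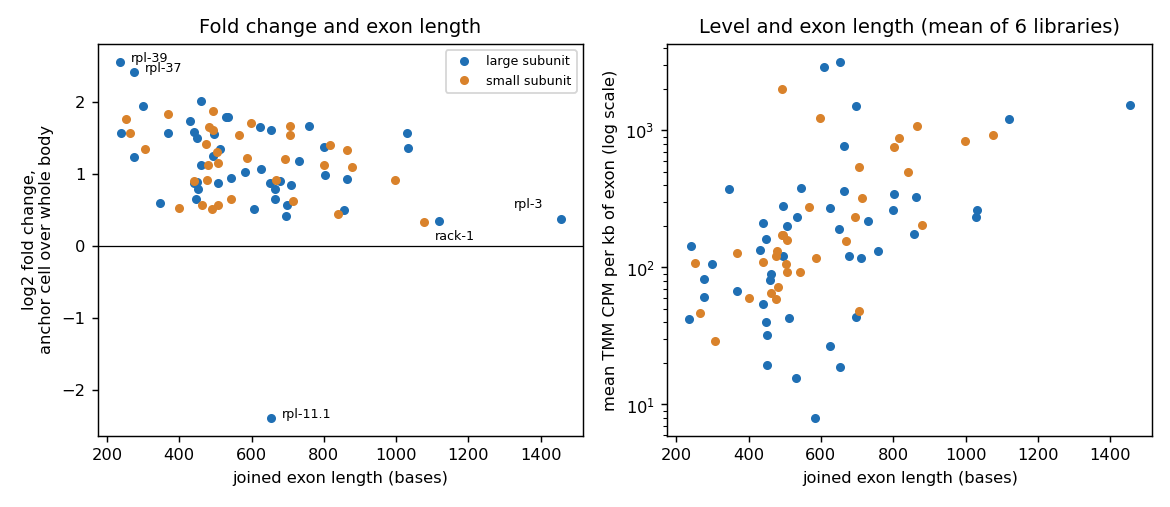
Joined exon length against the log2 fold change of anchor cells over whole-body cells (left) and against the mean TMM CPM per kb of the 6 libraries on a log axis (right), for 79 tested genes coloured by subunit. Short genes such as rpl-39 and rpl-37 lie at the top left of the first panel, long genes such as rpl-3 and rack-1 near 0, and rpl-11.1 apart at -2.39.

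The lean toward short genes was thus strongest in anchor cell replicate 1. The shortest 26 genes took 8.37% of ribosomal protein counts there, against 4.28% and 4.88% in the other anchor cell libraries, and 3.69%, 3.25% and 4.87% in the whole-body libraries. Whole-body libraries differed from each other by length too: the correlation of length with the log2 ratio of a library to the mean of the other 2 was 0.286, 0.423 and -0.391 for whole-body replicates 1, 2 and 3.

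By position, the annotated genes lay on all chromosomes, with 23 on chromosome I, 9 on II, 19 on III, 19 on IV, 8 on V and only 2 on X. Median log2 fold changes by chromosome were 0.92 to 1.29 among the tested genes. Other genes overlapped the exons of rps-20 by 18.7% of its bases, through the microRNA gene mir-354 on the same strand, and of no other tested gene by more than 10%.

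Other genes of protein synthesis did not all go the same way. Of 29 tested translation factors none was called; 23 lay above 0, with a median log2 fold change of 0.82, and before adjustment edgeR had 5 higher and 1 lower with p under 0.05, while DESeq2 and limma voom with sample weights called 2 higher each, beside the 5.37% and 5.55% of all genes that they called higher. The lowest adjusted p was that of the initiation factor gene eif-1, at 18.5 ± 1.49 CPM in anchor cells and 3.47 ± 0.675 CPM in the whole body (SD, n = 3 each; adjusted p = 0.0682 by edgeR). Among those below 0 it was that of ifg-1, for the scaffold factor eIF4G, with 128 ± 36.8 CPM against 251 ± 7.86 CPM (SD, n = 3 each; adjusted p = 0.151 by edgeR).

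Of 28 tested ribosome biogenesis genes, 23 lay below 0, with a median of -0.92, and edgeR called 2 lower and none higher, while DESeq2 called 6 lower and limma voom with sample weights 3. Over all genes these tools called 1.05%, 10.6% and 11.4% lower. The lowest adjusted p was that of rpac-40, for a subunit shared by RNA polymerases I and III, which fell to 1.28 ± 0.700 CPM in anchor cells, against 19.04 ± 2.54 CPM in the whole body (SD, n = 3 each; adjusted p = 0.0329 by edgeR). Of 64 tested genes for proteins of the mitochondrial ribosome, a separate machine inside mitochondria, 31 lay above 0 and 33 below, with a median of -0.019; edgeR called none (before adjustment, 1 higher and 5 lower with p under 0.05), DESeq2 called 6 lower and limma voom with sample weights 1 lower. These counts stand beside 11.2% of all genes higher and 13.2% lower before adjustment, and beside the same 10.6% and 11.4% called lower by the other tools. The medians of these lists were not tested against that of the cytosolic ribosomal protein genes.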

How the data were processed

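The authors deposited raw read counts per gene name for each library, whole numbers with no normalization, with 5 summary rows that were left out. The submitters' processing notes name WBcel235 as the build and list STAR, HTSeq, Trim Galore, FastQC, DESeq2 1.30.1 and R 4.0.2 as tools; the sources used here give no other versions, annotation release or strand setting. Reads assigned to no gene were 0.807% to 3.88% of counts, and reads assigned to more than 1 gene 0.303% to 0.677%. Libraries were amplified with no molecular identifiers, so copies of the same molecule count as separate reads. The intervals cover counting error of reads only and may be too narrow for molecules.

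Genes were kept by filterByExpr of edgeR 4.0.16 (11955 of 46748), scaled by TMM and tested with the quasi-likelihood F test of edgeR (robust fit), group as the only term, Benjamini-Hochberg adjusted p under 0.05 over all genes. The SE is the change divided by the square root of F. Alternatives used DESeq2 1.42.0, limma 3.58.1 (voom with sample weights), other scalings, no filter, a replicate term and each library left out. On simulated data drawn from these libraries, the fit made few false calls but recovered most of the changed genes only at the largest simulated fold, and missed most at the smaller folds. Positions and joined exon lengths are from Ensembl release 115 of WBcel235, which matched 80 of 81 symbols, and RefSeq names are from its WBcel235 table.

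Members, lists and tests were chosen with earlier results of these data known. Genes named are the 5 largest and 5 smallest changes, the 3 highest and the lowest per kb of each subunit, the paralogue pairs, the stalk genes, ubl-1 and rack-1; other members named in a count were chosen after their values were seen. Libraries of a group were no duplicates (chi-square per degree of freedom 81.0 or more).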

Additional observations from a re-analysis of the deposited data

How the results depend on the processing

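No ribosomal protein gene was called lower under any setting. The number called higher was 0 of 80 with edgeR, 3 with DESeq2 and 15 with limma voom with sample weights. Over all genes these tools called 2.01%, 5.37% and 5.55% higher. Without the filter on low counts 9 were called higher (81 genes tested), and 2 with the replicate number as a block. Of all genes, 2.25% and 3.26% were then called higher. Leaving out single libraries gave 0 to 41. The 41 came without anchor cell replicate 1, where 7.28% of all genes were called higher. The number called higher stayed at 0 with DESeq2 size factors, library totals, ribosomal protein counts as library size, or no rRNA and mitochondrially encoded genes. Of all genes, 2.02%, 0.82%, 0.025% and 1.99% were called higher under these settings, in the same order. Samples sharing a replicate number did not deviate together (correlations 0.053, -0.032 and -0.0032). These correlations cannot exclude that such samples were prepared together, so the block rests on the replicate number alone. The median log2 fold change of these genes was 0.30 to 1.22 over the scalings, tests, filter and block, and 0.78 to 1.49 with single libraries left out. For the large subunit the leave-out range was 0.82 to 1.44 and for the small subunit 0.72 to 1.58. The ratio of the groups' small over large subunit balance, 1.09, was 1.03 to 1.17, and that of their shares of all gene counts, 0.980, was 0.789 to 1.28 and 1.23 outside rRNA and mitochondrially encoded genes.

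Over all 80 genes, 57 were above 0 with library totals, against 79 with TMM. Only the genes chosen by the naming rule are listed here. With library totals, log2 fold changes of those that changed direction were -0.58 for rack-1, -0.050 for rla-1, -0.032 for rla-2, -0.42 for rpl-20, -0.56 for rpl-3, -0.55 for rpl-4, -0.47 for rpl-6 and -0.46 for rps-15. With ribosomal protein counts as library size, they were -0.52 for rack-1, -0.34 for rla-1, -0.41 for rpl-20, -0.57 for rpl-3, -0.38 for rpl-4, -0.22 for rpl-6 and -0.52 for rps-15. The change of rpl-11.1 was below 0 under every setting, from -2.93 to -1.67 with single libraries left out, with adjusted p values of 0.0573 to 0.483 over all settings. The cause of these differences was not tested. The gene rpl-42 stayed untested with the filter on low counts, with at most 1 count per library.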

Other observations

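The naming rule misses some cytosolic ribosomal protein genes that RefSeq names as such and the count tables list under other names. It also misses ubq-2, which has the same name in both. None of these 6 genes, ubq-2 included, passed edgeR's test. RefSeq's rpl-36A (C09H10.2) was not found under these names. W01D2.1, named rpl-37.1 in RefSeq, had 605, 1761 and 3636 counts in anchor cell replicates 1, 2 and 3, against 676, 936 and 673 counts in whole-body replicates 1, 2 and 3, with a log2 fold change of 2.39 ± 0.67 (SE; edgeR adjusted p = 0.0686). Its namesake rpl-37, named rpl-37.2 in RefSeq, had a log2 fold change of 2.41, and reads that fit both genes cannot be assigned to either from these tables. F54D7.7, named rpl-41.2, had 680, 558 and 1040 counts against 217, 297 and 309 counts (2.34 ± 0.62 SE; edgeR adjusted p = 0.0682), and its neighbour F54D7.6, named rpl-41.1, had 205, 72 and 61 counts against 25, 27 and 37 counts (2.66 ± 1.15 SE; edgeR adjusted p = 0.189). These rank with the largest changes among the ribosomal protein genes. Y37E3.8, named rpl-27A, had a log2 fold change of 0.90 ± 0.53, and C37A2.7, named rplp-2.1, one of 0.79 ± 0.93 (SE; edgeR adjusted p = 0.338 and 0.667).

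The gene ubq-2, which encodes ubiquitin fused to a large subunit protein, had nearly the same raw count in all libraries, 554, 494 and 489 in anchor cells against 492, 541 and 481 in whole-body cells, although the libraries differ in depth. Its log2 fold change was 0.91 ± 0.57 (SE; edgeR adjusted p = 0.367).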
